A study of Danio rerio with 6 samples.

Results

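The myosin heavy chains of skeletal muscle were followed in larval zebrafish tails, chosen by name as 10 gene symbols: the slow chains smyhc1, smyhc2 and smyhc3, the fast chains myhz1.1, myhz1.2, myhz1.3, myhz2, myha and myhb, and the heart-type chain myh7l. Matching these symbols in the deposited table gave 12 gene models among 38157, since smyhc2 and myhz1.1 each name a second, shorter model. Poly-A selected RNA of tails, blood-forming tissue included, was sequenced from 3 libraries of sirt6 mutant larvae and 3 libraries of WT larvae, all at 3 days post fertilisation. The mutant line was made with CRISPR/Cas9, and larvae were sorted by genotyping. The sources used here do not give the zygosity of the mutants, the lesion, or how many larvae went into a library. The gene sirt6 encodes a NAD-dependent deacylase of histones and other proteins, and the comparison sets transcripts of its mutants against those of WT.

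A muscle myosin is built from a pair of heavy chains, each with a motor head that hydrolyses ATP and pulls on actin and a long coiled tail that packs into the thick filament, and from light chains bound at the neck. The chain that a fibre makes sets how fast it contracts: slow fibres, which in zebrafish larvae form a superficial layer of the trunk and tail, make slow chains, and the deeper fast fibres, which form most of the muscle mass, make fast chains. The heart uses its own chains, among them myh6 in the atrium and myh7 in the ventricle. Many vertebrate heavy chain genes lie in tandem clusters of close copies.

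Reads in genes numbered 12788974, 14314865 and 13970013 in mutant libraries 1, 2 and 3, and 14655293, 13544132 and 12438359 in WT libraries 1, 2 and 3. Levels are FPKM, read fragments per kilobase of gene model relative to library size, so levels of different genes are compared per length throughout. The library size used in them was 0.952 to 1.06 times the reads in genes. The targeted gene sirt6 stood at 3.52, 3.39 and 3.04 FPKM in mutants, against 5.85, 3.25 and 2.44 in WT, on 50 to 131 reads, so its level does not tell the genotypes apart. The libraries did not differ by genotype alone. On recovered reads the chi-square per degree of freedom between libraries was 3.58 for mutants 1 and 3 and 2.94 for WT 2 and 3, against 16.3 to 41.2 for the other 13 pairs, so these pairs were close but differed by more than counting noise. The 15 tested fast-fibre genes under 2000 bases had a median log2 ratio of 0.62 in WT library 1 over WT libraries 2 and 3. The same median was 0.06 for the 6 fast-fibre genes of 4000 bases or more and -0.04 for the 11 tested heavy chain models.

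The tail was a tissue of fast chains. In WT, myhz1.1 stood at 1841 ± 80.0 FPKM, myhz2 at 818 ± 25.7, myhz1.2 at 577 ± 37.4 and myhz1.3 at 345 ± 3.12 (SD, n = 3 each). The slow chain smyhc1 followed at 57.9 ± 6.68 FPKM, and the fast chain myhb at 38.3 ± 5.65 (SD, n = 3). Below these lay smyhc2 at 15.8 ± 0.924 FPKM, its second model at 6.26 to 9.30, myha at 6.81 ± 0.219, the second myhz1.1 model at 5.43 ± 0.670 and myh7l at 4.56 ± 0.337. The lowest was smyhc3, at 0.350 ± 0.129 FPKM, from 17 to 38 reads per library. Neighbours in this order kept it in all 6 libraries and did not overlap within a genotype, apart from 2 pairs. The second smyhc2 model lay above myha in 4 of 6 libraries, and myh7l lay above the second myhz1.1 model in the 3 mutant libraries but below it in the 3 WT libraries.

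**Figure D1:**
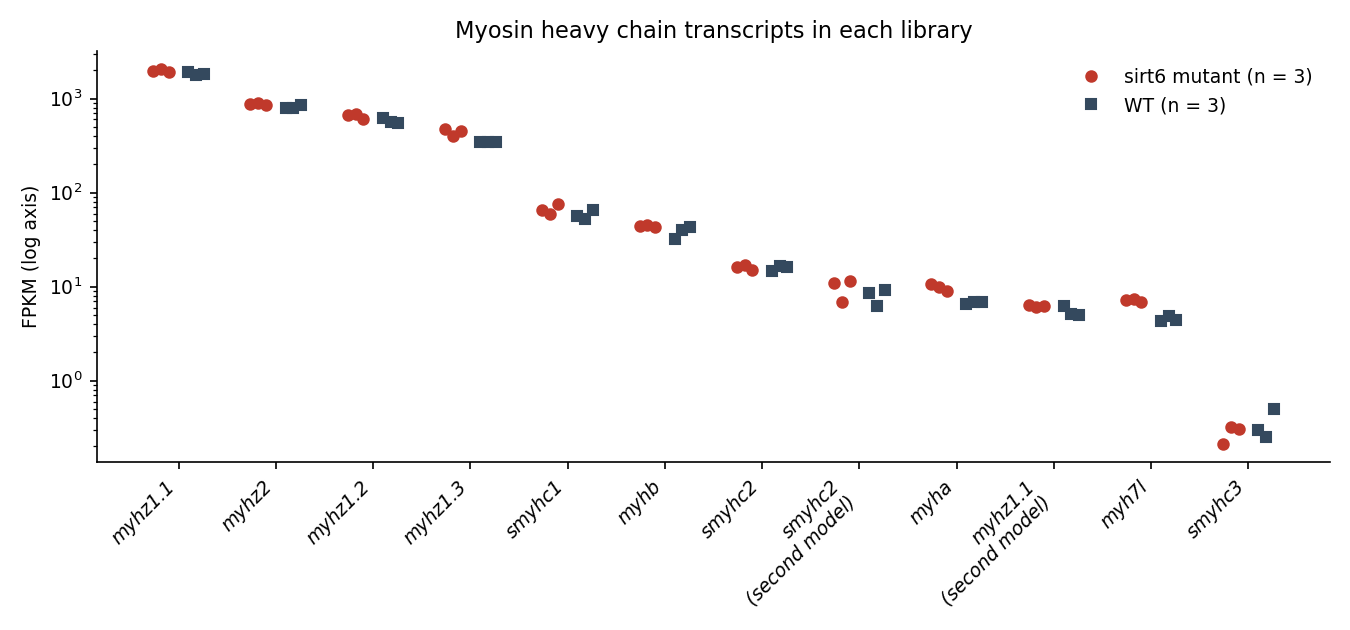
FPKM of each heavy chain gene model (log axis), with 1 point per library, sirt6 mutants as circles on the left and WT as squares on the right, ordered by WT mean. The 4 fast chains from myhz1.1 to myhz1.3 stand above 300 FPKM in WT and smyhc3 lies under 1.

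Summed over their models, fast chains stood at 4020, 4093 and 3885 FPKM in mutant libraries 1, 2 and 3, against 3743, 3539 and 3612 in WT libraries 1, 2 and 3. Slow chains summed to 92.4, 84.1 and 103 FPKM in mutants, against 79.5, 75.6 and 91.3 in WT. The slow sum includes the second smyhc2 model of 555 bases, at 6.26 to 11.6 FPKM per library on only 48 to 95 reads. Fast chain transcripts thus outnumbered slow ones per length by a factor of 43.3 ± 5.48 in mutants and 44.5 ± 4.25 in WT (SD, n = 3). The slow sum leaves out 5 unnamed models on an alternate contig of the slow locus. Their reads equalled 29.2% to 36.9% of those of the slow models, so the factor would be lower if they were counted as slow. The gene myhz1.1 alone made up 48.1% ± 0.725 of the skeletal sum, that is, slow and fast models together, in mutants and 49.6% ± 0.880 in WT (SD, n = 3). The skeletal models took 2.49% ± 0.0952 of the reads in genes in mutants and 2.23% ± 0.0483 in WT.

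Of the fast chains, 5 lie in one cluster on chromosome 5 of the GRCz11 build, 103 kb from the start of myhz2 to the end of myhz1.1. In map order these are myhz2 (ENSDARG00000012944, chr5:32206378-32217579) and myha (ENSDARG00000095930, chr5:32246872-32257316) on the plus strand, then myhz1.3 (ENSDARG00000067997, chr5:32262499-32274383), myhz1.2 (ENSDARG00000067995, chr5:32281815-32293002) and myhz1.1 (ENSDARG00000067990, chr5:32298624-32309129) on the minus strand. A sixth chain of the cluster, myhc4, is not among the 10 symbols and stood at 33.5 ± 2.45 FPKM in mutants and 27.7 ± 3.19 in WT (SD, n = 3). Levels within the cluster differed widely, and the WT mean of myhz1.1 was 270 times that of myha. The second myhz1.1 model (ENSDARG00000102414, chr22:268352-278328, minus strand) is called myhz1.1l in the reference table of gene names. The remaining fast chain, myhb (ENSDARG00000001993, chr6:40745437-40756138, minus strand), lies inside the span of arpc4 on the same strand.

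**Figure D2:**
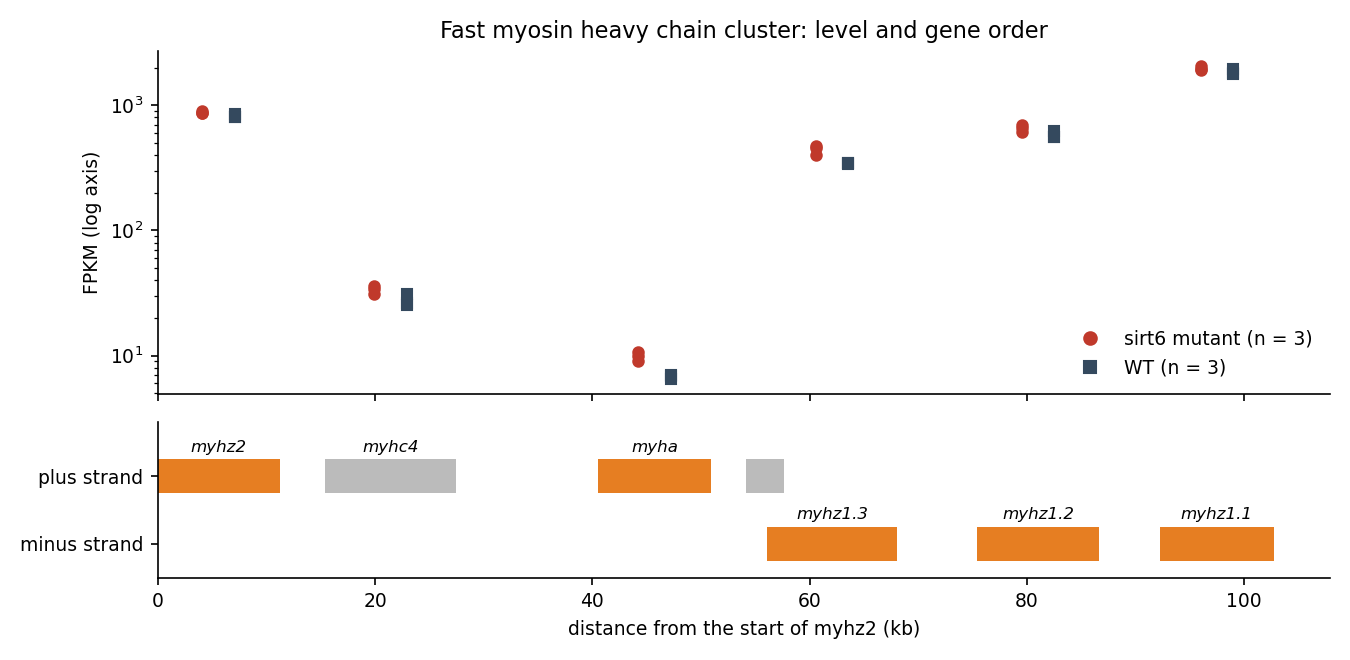
Upper panel, FPKM (log axis) of the heavy chain genes of the chromosome 5 cluster, 1 point per library, sirt6 mutants left of WT. Lower panel, the gene models by strand and distance in kb from the start of myhz2, with genes outside the 10 symbols in grey; myha, the lowest of the cluster, lies between myhc4 and myhz1.3.

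The slow genes smyhc1 (ENSDARG00000099959, chr24:40656510-40668208), smyhc2 (ENSDARG00000103969, chr24:40680153-40700596) and smyhc3 (ENSDARG00000114031, chr24:40712794-40726073) lie in a row on the minus strand. The second smyhc2 model (ENSDARG00000111606) is a stretch of 555 bases on an unplaced scaffold and held 48 to 95 reads. An alternate contig of the slow locus carries 5 further unnamed models, which held 1982 to 2437 reads per library. That equals 29.2% to 36.9% of the reads of the slow chain models, and whether those reads stem from the named slow chains was not tested. The sources used here do not say how reads matching several copies were counted, so levels of close copies are uncertain relative to each other.

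No heavy chain passed the test between genotypes, and all but smyhc3 had a higher mean in mutants. Tests used limma on log2(FPKM + 0.5) over the 23855 genes whose 6 libraries averaged 0.5 FPKM or more, with Benjamini-Hochberg adjustment over all of them. Among the 12 models 11 entered the test, and smyhc3 was below the minimum. With limma, 0 of 11 passed at an adjusted p of 0.05, as did 0% of all genes tested, and the adjusted p of the heavy chains ran from 0.633 to 0.985. At an unadjusted p under 0.05 there were 3 of 11, myh7l, myha and myhz1.3, all higher in mutants. Among all genes tested, 2.45% had such a p and were higher in mutants. For myhz1.3 the unadjusted limma p was 0.0489, close to that threshold. In limma voom on recovered reads 0 of 11 passed and 3 had an unadjusted p under 0.05. Of the tested models 5 had their 3 mutant libraries all above their 3 WT libraries, against 5.16% of all genes tested, and 0 lay all below, against 5.4%. Over all genes tested limma gave 1368 at an unadjusted p under 0.05, and limma voom gave 0 passing and 1182 unadjusted. The median log2 fold change was 0.21 over the 11 models and 0.00 over all genes tested, of which 11937 had a higher mean in mutants. These genes share sequence and fibres, so they are not independent of each other.

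**Figure D3:**
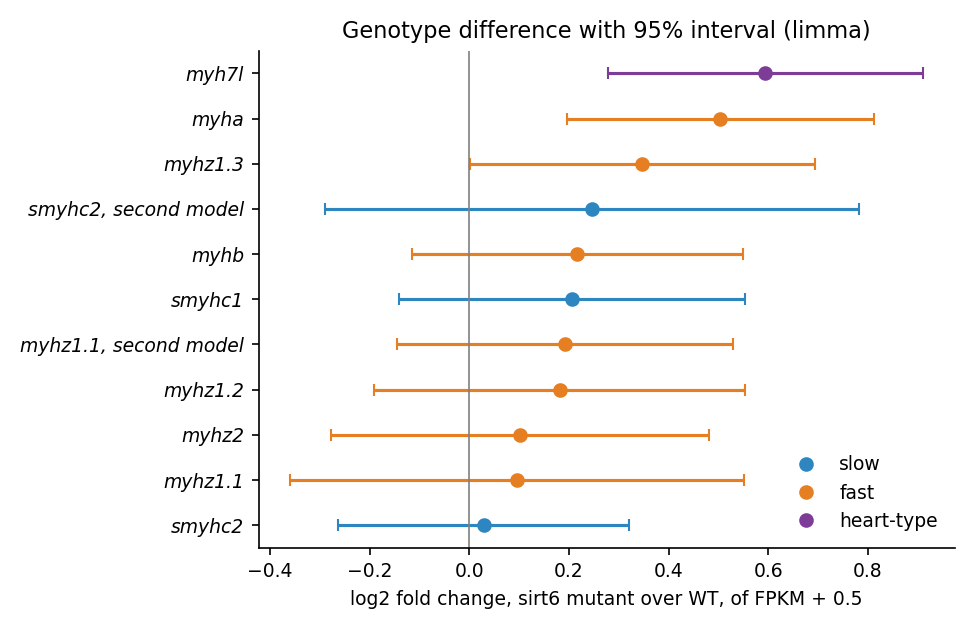
Log2 fold change of FPKM + 0.5, sirt6 mutant over WT, for the 11 tested models, with the 95% interval from limma as bars and colour for the kind of chain. The intervals of myh7l, myha and myhz1.3 lie above 0 before adjustment and the other 8 include it.

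Among the fast chains the largest log2 fold change was that of myha, with 10.7, 9.98 and 9.03 FPKM in mutant libraries 1, 2 and 3, against 6.56, 6.95 and 6.93 in WT libraries 1, 2 and 3. Every mutant library lay above every WT library, and the gap between the groups exceeded the spread within each. The log2 fold change of myha was 0.50 (SE 0.13, 95% interval 0.20 to 0.81, limma adjusted p = 0.733), on 524 to 838 reads per library. Next to it in the cluster, myhz1.3 stood at 470, 398 and 453 FPKM in mutants, against 342, 345 and 348 in WT. The WT libraries were close together, the mutant libraries were spread, and the groups did not overlap. The log2 fold change of myhz1.3 was 0.35 (SE 0.15, 95% interval 0.00 to 0.69, limma adjusted p = 0.868).

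The other fast chains differed less. For myhb the level was 44.1, 45.2 and 43.4 FPKM in mutants, against 32.1, 39.6 and 43.1 in WT, so that mutant library 3 and WT library 3 were nearly level (log2 fold change 0.22, SE 0.14, limma adjusted p = 0.925). The log2 fold change of myhb was 0.10 without WT library 1, its lowest library, and 0.08 without WT library 1 and mutant library 2. For myhz2 it was 868, 902 and 862 FPKM in mutants, against 804, 802 and 847 in WT (log2 fold change 0.10, SE 0.16, limma adjusted p = 0.964). Groups did not overlap in either gene. The most abundant chain, myhz1.1, had 1958, 2042 and 1902 FPKM in mutants, against 1932, 1783 and 1808 in WT (log2 fold change 0.10, SE 0.20, limma adjusted p = 0.967). For myhz1.2 the values were 663, 689 and 610 FPKM in mutants, against 620, 558 and 552 in WT (log2 fold change 0.18, SE 0.16, limma adjusted p = 0.930). In both, WT library 1 lay within the range of the mutants. The second myhz1.1 model, at 6.25 ± 0.148 FPKM in mutants and 5.43 ± 0.670 in WT (SD, n = 3), also overlapped, with a log2 fold change of 0.19 in all libraries and 0.29 without WT library 1 and mutant library 2.

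Of the slow chains, smyhc1, the main slow chain of larval muscle, had 65.0, 59.8 and 76.1 FPKM in mutant libraries 1, 2 and 3, against 55.8, 52.5 and 65.4 in WT. Library 3 was the highest of each genotype, and WT library 3 lay above mutant libraries 1 and 2. The log2 fold change of smyhc1 was 0.21 (SE 0.15, 95% interval -0.14 to 0.55, limma adjusted p = 0.928), and with 1 library left out it ranged from 0.11 without mutant library 3 to 0.30 without WT library 3. Its paralogue smyhc2 had 16.3, 17.1 and 15.0 FPKM in mutants, against 14.8, 16.6 and 16.1 in WT, a log2 fold change of 0.03 (95% interval -0.26 to 0.32, limma adjusted p = 0.985). The genotypes overlapped throughout, and the log2 fold change was -0.0122 without mutant library 2 and -0.0170 without WT library 1. The scaffold model of smyhc2 had 10.8, 6.88 and 11.6 FPKM in mutants, against 8.63, 6.26 and 9.30 in WT, with overlap. Its log2 fold change of 0.25 ranged from 0.08 without WT library 2 to 0.47 without mutant library 2 when 1 library was left out, and was 0.52 without WT library 1 and mutant library 2. The least abundant slow chain, smyhc3, stood at 0.279 ± 0.0572 FPKM in mutants and 0.350 ± 0.129 in WT (SD, n = 3).

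The balance of slow against fast chains did not differ beyond its spread. Slow chains made up 2.25%, 2.01% and 2.58% of the summed skeletal chains in mutant libraries 1, 2 and 3, against 2.08%, 2.09% and 2.46% in WT libraries 1, 2 and 3. The log2 ratio of slow to fast chains was -5.43 ± 0.184 in mutants and -5.47 ± 0.142 in WT (SD, n = 3), a difference of 0.04 (exact two-sided permutation test p = 0.7, where 0.1 is the smallest p that 3 against 3 libraries allow). It was -0.0538 without mutant library 3, -0.0013 without WT library 1 and 0.13 without mutant library 2. Within the fast pool myha took 0.259%, 0.239% and 0.227% of the skeletal sum in mutants, against 0.172%, 0.192% and 0.187% in WT. That was the only 1 of the 11 shares whose groups did not overlap (exact two-sided permutation p = 0.1). By FPKM, 5.16% of all genes tested lay apart with mutants higher and 5.4% with mutants lower. Shares of the same sum are not independent of each other.

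The skeletal total was higher in mutants by 10.2%: all slow and fast models summed to 4112, 4177 and 3988 FPKM in mutants, against 3823, 3615 and 3703 in WT. The groups did not overlap, with a log2 difference of 0.14 (exact two-sided permutation p = 0.1, the smallest possible), and the difference was 0.15 without WT library 1 and mutant library 2. As a share of the summed FPKM of all genes it was 0.933%, 0.803% and 0.937% in mutants, against 0.703%, 0.782% and 0.811% in WT, and on that scale mutant library 2 lay below WT library 3. More muscle cells per tail and more RNA per cell cannot be told apart in such samples.

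**Figure D4:**
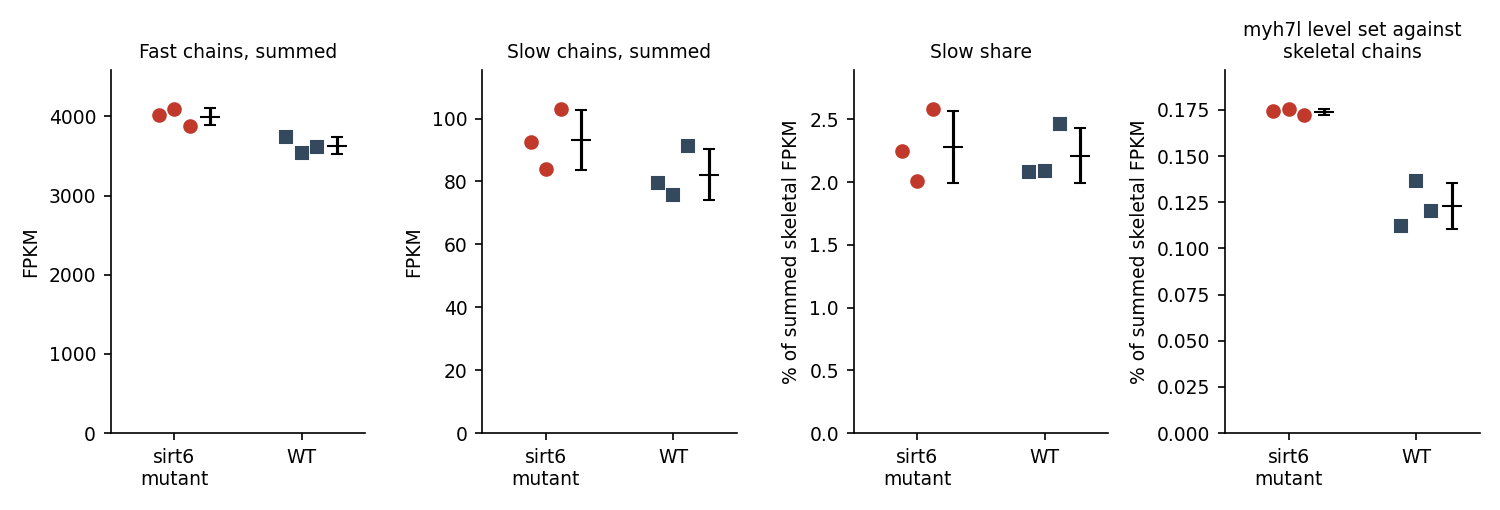
From left to right, the summed FPKM of fast chains, the summed FPKM of slow chains, the slow share of the skeletal sum in %, and the myh7l level set against the skeletal sum in %, with 1 point per library and the mean ± SD as bars (n = 3), sirt6 mutants left of WT. The fast sum and the myh7l ratio do not overlap between genotypes; the slow sum and the slow share do.

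The heart-type chain myh7l (ENSDARG00000079782, chr2:24274293-24289726, minus strand) had the largest log2 fold change of the 11 tested models. Its level was 7.17, 7.33 and 6.87 FPKM in mutant libraries 1, 2 and 3, against 4.28, 4.93 and 4.45 in WT libraries 1, 2 and 3. The libraries of each genotype were close together and the lowest mutant library lay well above the highest WT library. The log2 fold change of myh7l was 0.59 (SE 0.14, 95% interval 0.28 to 0.91), on 395 to 706 reads per library. It ranked 92 by p among the genes tested and did not pass (limma adjusted p = 0.633). Without WT library 1 and mutant library 2, which stood apart from the others of their genotype, the log2 fold changes were 0.54 for myh7l, 0.47 for myha and 0.41 for myhz1.3.

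Set against the skeletal chains, myh7l was scarce: its level was 0.174% ± 0.0016 of their sum in mutants and 0.123% ± 0.0124 in WT (SD, n = 3). With 0.5 FPKM added to myh7l, its log2 ratio to the skeletal sum was -9.07 ± 0.0103 in mutants and -9.52 ± 0.134 in WT. That is a difference of 0.45 with no overlap (exact two-sided permutation p = 0.1, the smallest possible). With nothing added the difference was 0.51 (exact two-sided permutation p = 0.1). Without WT library 1 and mutant library 2 the difference, with 0.5 added, was 0.39. The difference of myh7l was thus larger than that of the skeletal sum in the same libraries, but not clearly larger than that of each skeletal chain. The log2 fold change was 0.59 for myh7l and 0.50 for the fast chain myha, and their limma intervals, 0.28 to 0.91 and 0.20 to 0.81, overlapped. It was 0.35 for myhz1.3 and 0.03 to 0.25 for the other tested skeletal models. The RefSeq table (GRCz12tu) gives vmhcl as a synonym of myh7l, and both vmhc and smyhc3 as synonyms of its neighbour myh7. These lie on the same strand of chromosome 2, with 4230 bases between them. In the deposited descriptions smyhc1, smyhc2 and myh7l are all matched to mammalian cardiac chains, so those descriptions do not tell heart from slow chains.

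Other chains listed here as heart chains were also present in the tails at low levels, and whether they came from heart tissue was not tested. The ventricular chain myh7 had 15.0, 16.3 and 15.5 FPKM in mutants, against 10.8, 14.3 and 13.3 in WT, and the atrial chain myh6 stood at 2.22 ± 0.428 FPKM in mutants and 1.52 ± 0.187 in WT (SD, n = 3). Neither overlapped between genotypes and neither passed (limma adjusted p = 0.895 for myh7 and 0.872 for myh6). Among all genes tested, 5.16% lay apart with mutants higher and 5.4% with mutants lower. The chains myh7bb, at 14.6 ± 0.739 FPKM in mutants and 14.6 ± 2.32 in WT, and myh7ba, at 1.85 ± 0.644 and 1.94 ± 0.537 (SD, n = 3), overlapped. As a share of myh7, myh7l stood at 47.9%, 44.8% and 44.4% in mutants, against 39.6%, 34.4% and 33.4% in WT, without overlap. The heart light chain myl7 had a lower mean in mutants, at 16.4, 23.1 and 13.7 FPKM in mutants, against 22.2, 19.5 and 20.4 in WT, with overlap. Of 14 heart markers 13 were found by symbol and 12 tested, 9 with a higher and 3 with a lower mean in mutants and 0 passing (median log2 fold change 0.30). The marker not found by symbol was vmhc, the synonym of myh7. The counts and the summed level of these markers therefore leave out myh7, whose values are given above. Only 1 of the 12, myh6 itself, did not overlap between genotypes. Their summed level was 83.8 to 111 FPKM in mutants and 76.4 to 106 in WT. The heart transcription factor gene nkx2.5 was listed at 0 in all 6 libraries, and hand2 stood at 16.9 ± 3.31 FPKM in mutants and 18.3 ± 0.742 in WT (SD, n = 3). Other heart markers had a higher or nearly equal mean in mutants. These were cmlc1, at 18.3 ± 4.01 FPKM in mutants and 11.9 ± 6.57 in WT, and nppa, at 8.01 ± 2.73 and 6.43 ± 1.19. They also included tnnt2a, at 6.20 ± 0.716 and 4.88 ± 1.37, and myl4, at 11.8 ± 1.68 and 11.7 ± 3.16 (SD, n = 3), all with overlap. The part of heart tissue in the myh7l difference was not tested.

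Transcripts of partners of the heavy chains did not share one direction. The slow light chain myl10 stood at 271 ± 63.6 FPKM in mutants and 248 ± 104 in WT, and the calcium pump atp2a1 of fast fibres at 3031 ± 179 and 3150 ± 277 (SD, n = 3). Of 17 tested slow-fibre genes, 12 had a higher and 5 a lower mean in mutants (median log2 fold change 0.07). Of 29 tested fast-fibre genes, 13 were higher and 16 lower (median -0.02), and of 29 shared sarcomere genes 19 were higher and 10 lower (median 0.04). With limma 0 of these passed. The fast light chains mylz3, mylpfb and myl1, which bind the heavy chain neck, summed to 7426, 9233 and 6815 FPKM in mutants, against 11180, 6893 and 6634 in WT. WT library 1 and mutant library 2 stood apart here. In the summed fast heavy chains they were also the highest of their genotype, but by a smaller margin. There WT library 1 had 3743 FPKM, against 3539 and 3612, and mutant library 2 had 4093, against 4020 and 3885. These light chain models have 839 to 1432 bases, against 4893 to 6228 in the fast heavy chains. The part of gene length in this was not tested. Light chain transcripts per heavy chain transcript were 1.95 ± 0.267 in mutants and 2.26 ± 0.634 in WT (SD, n = 3; exact two-sided permutation p = 0.6). That ratio leaves out the fast-fibre light chain gene mylpfa, which held 0 to 3 reads per library.

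**Figure D5:**
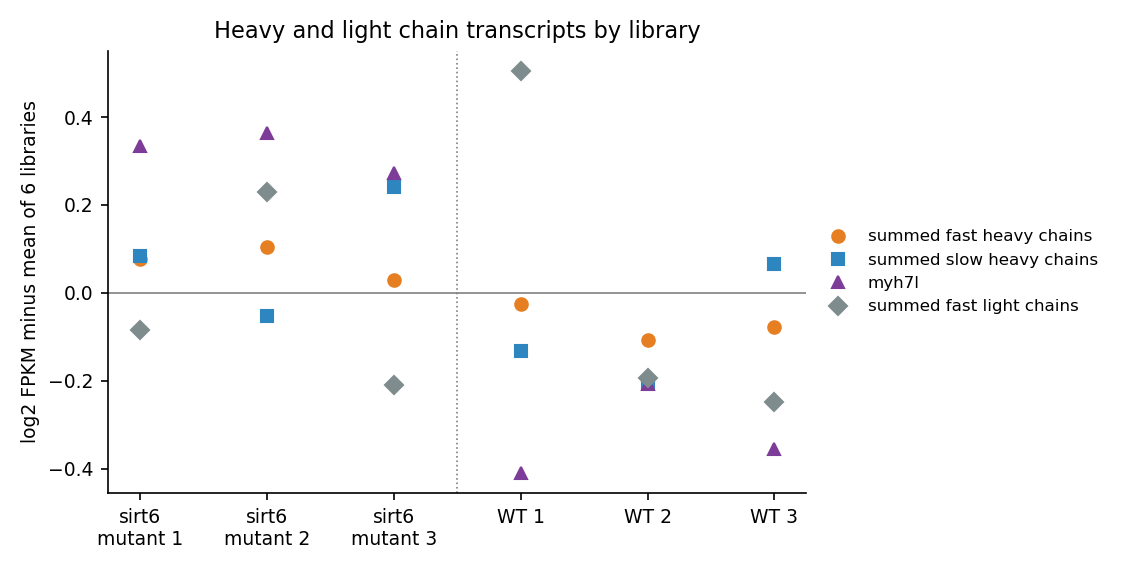
Log2 FPKM minus the mean of the 6 libraries for summed fast heavy chains, summed slow heavy chains, myh7l and summed fast light chains, by library, sirt6 mutants left of the dotted line and WT right of it. Fast light chains are at 0.51 in WT library 1 while fast heavy chains there are at -0.03.

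Genes for folding myosin and building the thick filament had a median log2 fold change of 0.13, with 10 of 11 tested higher in mutants and 0 passing limma. These include the chaperone gene hsp90aa1.1, at 71.9 ± 8.24 FPKM in mutants and 71.1 ± 9.33 in WT, and smyd1b, which encodes a methyltransferase needed for thick filaments, at 31.3 ± 4.23 and 29.4 ± 9.89 (SD, n = 3). The myosin chaperone unc45b, named after its values were seen, was the only 1 of the 11 tested without overlap. Of all genes tested, 5.16% lay apart with mutants higher and 5.4% with mutants lower. The level of unc45b was 16.3 ± 0.252 FPKM in mutants and 13.8 ± 0.365 in WT (limma adjusted p = 0.892). Of 18 tested muscle regulators, 11 were higher and 7 lower (median 0.10), with 0 passing. The myogenic factor gene myod1 stood at 19.3 ± 2.13 FPKM in mutants and 17.8 ± 5.43 in WT (SD, n = 3), and mef2ca, which encodes a partner of such factors, ranged over 16.5 to 22.9 FPKM in mutants and 17.2 to 26.5 in WT. Without overlap, 2 of the 18 regulators were higher in mutants and 1 lower, against 5.16% and 5.4% of all genes tested. These 3 regulators were all named after their values were seen. Of these, prdm1a, which directs slow fibre fate, stood at 6.38 ± 0.542 FPKM in mutants and 5.52 ± 0.351 in WT (limma adjusted p = 0.928). The progenitor factor gene pax3a stood at 1.71 ± 0.0602 FPKM in mutants and 1.26 ± 0.176 in WT (limma adjusted p = 0.902), and the myogenic factor gene myf5 at 1.86 ± 0.418 FPKM in mutants and 3.30 ± 0.513 in WT (limma adjusted p = 0.775). Among non-muscle and smooth muscle heavy chains 4 of 5 tested were higher in mutants, 0 passing, and the most abundant, the non-muscle chain myh9a, had 52.8, 45.6 and 51.7 FPKM in mutants, against 42.2, 38.2 and 36.8 in WT, without overlap (limma adjusted p = 0.834).

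Markers of other tissues gave no common direction either. Neural markers had 3 of 10 tested genes higher in mutants (median log2 fold change -0.05), skin markers 3 of 8 (-0.02), red cell markers 4 of 7 (0.24), notochord markers 6 of 7 (0.34), and liver and yolk markers 3 of 7 (-0.12), with 0 passing limma in each. Liver and yolk markers summed to 4588 to 6413 FPKM in mutants and 5312 to 7115 in WT, so such transcripts were in all 6 libraries. Their part in the heavy chain values was not tested.

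Over the 6 libraries, the genes most like myh7l by Pearson r of log2(FPKM + 0.5) were npsn (r = 0.995), top2a and mpx (0.986 each), irg1l (0.982) and saga (0.979), among 8119 named genes of at least 5 FPKM. For the fast sum they were cd248b (0.988), faimb (0.978), sp9 (0.978), capn3a (0.974) and gsnb (0.971). For the slow sum they were qki2 (0.971), acana (0.964), rgra (0.951), mark2b (0.947) and neo1a (0.942). An r above 0.9 was reached by 70 genes with myh7l, 123 with the fast sum and 31 with the slow sum. These are descriptions over 6 points that share genotype, library and depth.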

How the data were processed

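The authors deposited FPKM values per gene and library. The submitters' processing notes name GRCz11 and the tools HISAT2 2.0.5, featureCounts, FastQC and DESeq2, with no roles. Annotation release, strand setting and multi-mapping rule are not given in those sources. Each deposited FPKM value times gene length was a whole multiple of 1 step per library (tolerance 0.001 of a read) for 100% of values above 0, which gave reads per gene. Median-of-ratios factors of the deposited values were 1 in every library, so rescaling by them changed nothing.

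The 10 symbols, the gene lists and the alternatives were chosen with earlier results of these data known. Values were put on the scale log2(FPKM + 0.5) and compared, mutant minus WT, by the two-sided limma test (limma 3.58.1, R 4.3.3; trended variance). Genes averaging under 0.5 FPKM over the 6 libraries were left out. P-values were Benjamini-Hochberg adjusted over all genes tested, at a threshold of 0.05. The added 0.5 understates changes of low genes. Sums and ratios were compared by exact permutation of libraries (scipy 1.17.1). The labels do not say that libraries came from separate clutches or pools, so p-values measure the spread between libraries, which may be technical. The fit was tested on simulated data with the same spread for all genes and no library standing apart. That run cannot show how the fit handles the libraries here. Named genes were the 10 symbols, up to 6 of the highest mean in each list, and the 5 genes of highest r with each pattern. The light chain myl1 and the genes said to be named after their values were seen lie outside this rule. Alternatives changed the pseudocount, filter, scaling, variance model and test, added a replicate block, or left out libraries.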

Additional observations from a re-analysis of the deposited data

How the results depend on the processing

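The log2 fold change of each tested heavy chain model kept its direction in 18 alternative fits, except smyhc2, at -0.0583 without WT library 1 and mutant library 2, -0.0219 with array quality weights, and -0.0170 to 0.0792 with 1 library left out. Median-of-ratios rescaling, 1 of the 18, repeated the main fit, since its factors were 1. The unadjusted limma p of myhz1.3 was 0.0489 in the main fit and 0.0147 to 0.187 with 1 library left out. It was 0.0599 with no filter, 0.105 with quantile normalization and 0.131 with the replicate block, but 0.0222 in limma voom on recovered reads. Heavy chains passed limma in only 2 fits, where many genes did. Without WT library 1 and mutant library 2 these were myhz1.3 (adjusted p = 0.00847), myha (0.0364) and myh7l (0.0256), and 2183 genes passed as higher and 2246 as lower, 9.15% of all genes tested being called higher. Since only the 2 close pairs remain in that fit, genotype and pair cannot be told apart. With array quality weights, lowest for those 2 libraries (0.223 for WT library 1 and 0.263 for mutant library 2), the adjusted p were 0.0156, 0.0143 and 0.0136. In that fit 2295 genes passed as higher and 2554 as lower, 9.62% of all genes tested being called higher. It leans on the same 2 close pairs, so the same limit holds for myhz1.3, myha and myh7l. Over all alternatives the adjusted p ran up to 1 for these genes.

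When genes had to average 5 FPKM, 2 passed as higher and 0 as lower, and with quantile normalization 1 and 1, none of them heavy chains of the 10 symbols. Leaving out 1 library gave 0 calls in either direction. The log2 differences were then -0.0538 to 0.13 for slow against fast chains (-0.0013 without WT library 1) and 0.12 to 0.16 for the skeletal sum. For myh7l against the skeletal sum, with 0.5 FPKM added to myh7l, they were 0.39 to 0.53. Quantile normalization gave 0.19 for the skeletal sum (exact permutation p = 0.3), and adjustment for gene length, chosen after seeing the data, 0.14 (exact permutation p = 0.3). Against myh7 in place of the skeletal sum, also chosen after seeing the data, the myh7l difference was 0.31, with 0.5 FPKM added to both genes. With the replicate block 0 genes were called, and the skeletal sum differed by 0.14. Same-numbered libraries shared little, with correlations of their deviations of 0.053, 0.012 and 0.106, so the numbers were not taken to pair them.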
